A study of Caenorhabditis elegans with 4 samples.

Results

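The arms of chromosome V carried 488 of the 10159 BLMP-1 peaks of fed L1 larvae, or 4.80% of the list and 29.8% of the peaks of that chromosome. An arm was taken as the outer 25% of the span between the outermost peaks of V, on build WS180 of the worm genome. Peaks were assigned to it by their midpoint. The left arm ran from position 7780 to about 5230700 and held 291 peaks, and the right arm ran from about 15676539 to 20899459 and held 197. Both arms were 5.22 Mb long, so their counts can be set side by side directly.

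BLMP-1 is the worm relative of the vertebrate repressor PRDM1 (Blimp-1), a DNA-binding protein with zinc fingers. In Caenorhabditis elegans it is known for timing events of larval development, among them the migration of the gonadal distal tip cells and the periodic expression of cuticle genes in the epidermis. The arms of worm autosomes differ from the centres as a rule: crossovers are more frequent there, repeats and transposon remnants are more common, chromatin with methylated lysine 9 of histone H3 is richer, and essential genes are fewer. Chromosome V is known for large families of chemoreceptor genes. None of these features was measured here, and the genes at the peaks were not analysed.

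The values come from chromatin immunoprecipitation followed by sequencing (ChIP-seq). Both groups of libraries, 2 of BLMP-1 ChIP and 2 of input DNA, were made from hermaphrodites of strain OP109 at the fed L1 stage, grown at 20 °C. These worms carry the array wgIs109, which holds blmp-1::TY1::EGFP::FLAG with unc-119 (+), on an unc-119 (ed3) III background. The array was introduced by particle bombardment of a recombineered plasmid, and the labels say that the fusion follows the pattern of blmp-1. They also mention embryos in a general lysis protocol, although the stage given for all 4 libraries is L1. Chromatin was recovered through the EGFP tag with a goat antibody, so the binding mapped is that of the tagged transgene product in whole larvae. The authors combined both replicates into 1 list that gives the ends and the q-value of each peak. No value of a single library was analysed, the read depth is unknown, and the p-values below describe variation between stretches of 1 list and not between worms. Peaks cluster along a chromosome, so the arms were compared over blocks of about 250 kb with the spread between blocks estimated from the data.

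The left arm carried 291 peaks and the right 197, a difference that passed the threshold in 4 of 8 alternative settings. Density was 55.7 peaks per Mb on the left and 37.7 on the right, a ratio of 1.48 (95% interval 1.05 to 2.08; quasi-Poisson fit, n = 21 blocks in each arm, adjusted p = 0.0421). This and the other fits of left against right on V had 1 term for each of the 10 autosome arms. Their spread was therefore estimated from the blocks of all 10 arms, and n gives the blocks of V. A block of the left arm held between 2 and 24 peaks with a median of 12, and a block of the right arm between 0 and 23 with a median of 8. The ranges of the arms thus overlapped almost fully. Fewer than 10 peaks were found in 3 of 21 left blocks and in 14 of 21 right blocks. In quasi-Poisson fits the call was lost with blocks of 500 kb (ratio 1.48), with the outer 20% of the span (1.49) and among the 5079 peaks of lowest q (1.74). The last of the lost calls came from a setting added after the data were seen. It left out 4 neighbouring sparse blocks of the right arm, about 3 to 4 Mb from its end. Without them the ratio was 1.27 (quasi-Poisson fit, adjusted p = 0.197, n = 21 and 17 blocks). Nothing was left out on the left, so a fall in the ratio was fixed in advance, and its size only describes that stretch.

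**Figure D1:**
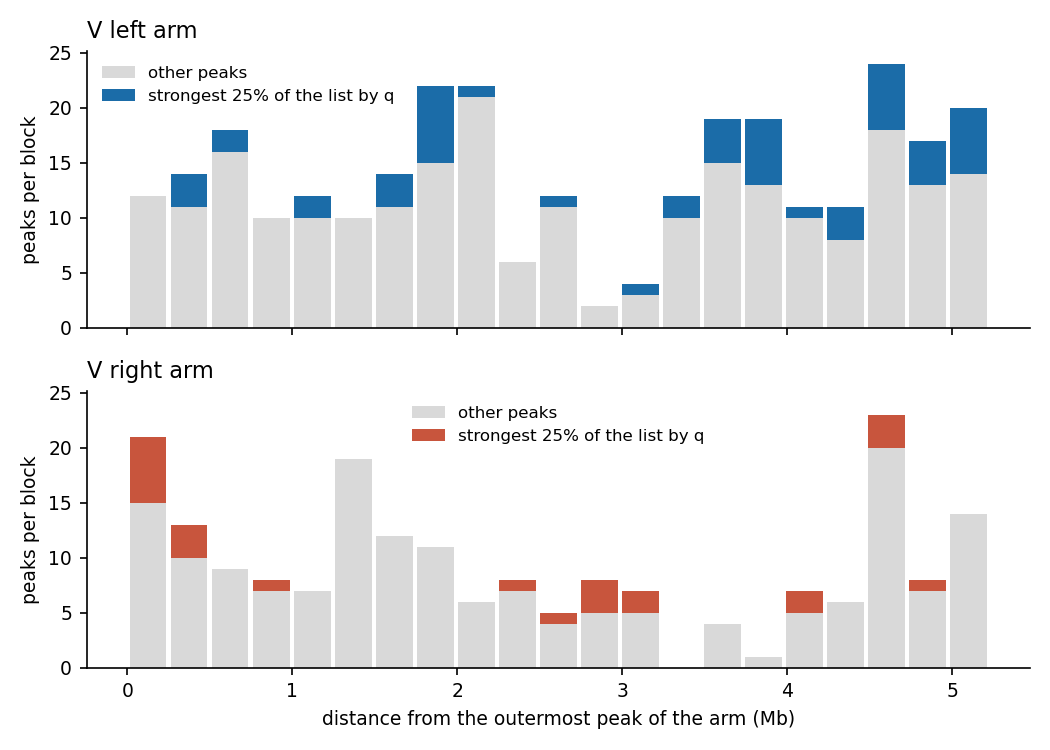
Peaks per block of 248.71 kb on the left arm (top) and the right arm (bottom) of V, against the distance in Mb from the outermost peak of the arm. Bars are split into peaks among the strongest 25% of the whole list by q (coloured) and all others (grey). The left arm has 2 to 24 peaks in every block, while the right arm has 1 block with 0 peaks and a long stretch of grey bars.

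Neither arm was even along its length. Counted in steps of 1 Mb from the outermost peak inwards, the left arm held 55, 59, 40, 57 and 60 peaks, and its innermost 0.223 Mb held 20. The corresponding counts of the right arm were 52, 49, 28, 12 and 42, with 14 in the innermost piece. The outer 2 Mb of the arms were therefore close in number, and the right arm fell behind further in, with its minimum of 12 between 3 and 4 Mb from the end. The 26 full steps of the arms of chromosomes I to IV held 43 to 126 peaks with a median of 80. Of the V steps, 4 lay below that range: 1 on the left arm, with 40 peaks, and 3 on the right, with 28, 12 and 42. The range leaves out the shorter innermost pieces. That of the left arm of II, 0.8165 Mb long, held 29 peaks or 35.5 per Mb, fewer than the V steps of 40 and 42.

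Long empty stretches made up much of the right arm. Gaps over 50 kb between neighbouring peaks numbered 27 there and added up to 2.71 Mb, or 51.8% of the arm. On the left arm there were 22 such gaps, adding up to 2.03 Mb or 38.8%. On the arms of I to IV this share was 30.7% over all 8 arms, and the highest shares were 62.7% on the left arm of II and 49.9% on the right arm of IV. The 3 longest gaps of the right arm of V were 369 kb from 17345220 to 17714372, 247 kb from 16911960 to 17159214 and 209 kb from 18021971 to 18231413. The 3 longest of the left arm were 288 kb from 2285514 to 2573500, 146 kb from 4193385 to 4339559 and 130 kb from 2909845 to 3039352. The longest gap on any arm of I to IV was 161267 bp. Windows of 100 kb without a peak numbered 4 of 52 on the left arm of V, 6 of 52 on the right and 5 of 304 on the arms of I to IV.

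Where peaks did occur, close neighbours were still present. The median gap was 7119 bp on the left arm and 10841 bp on the right, against 4173 bp on the arms of I to IV and 3097 bp in the centre of V. Gaps under 1 kb made up 14.1% of the gaps on the left arm (41 of 290), 17.3% on the right (34 of 196) and 20.4% on the arms of I to IV (501 of 2457). Peaks with no neighbour within 1 kb made up 74.9% of the left arm and 70.6% of the right. The other 8 arms ranged from 57.8% on the right arm of II to 75.2% on the right arm of IV.

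Chains of at least 4 peaks with gaps under 1 kb numbered 5 on the arms of V. They held 2.75% of the peaks of the left arm and 6.60% of those of the right. On the arms of I to IV this share ran from 0% on the right arm of IV to 8.12% on the left arm of III. The chain with most members had 5 peaks on the right arm from 19524551 to 19529665, with a lowest q of 4.46e-19 and 0 members among the strongest 25% of the list. The other chains on the right arm had 4 peaks each, from 16211691 to 16214883 (lowest q 6.17e-38) and from 15702431 to 15705088 (1.56e-12). Both chains of the left arm had 4 peaks and held stronger members. They ran from 3738242 to 3741997 (lowest q 2.52e-93) and from 3982100 to 3985431 (3.65e-51), with 2 members of each in the strongest 25%.

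**Figure D2:**
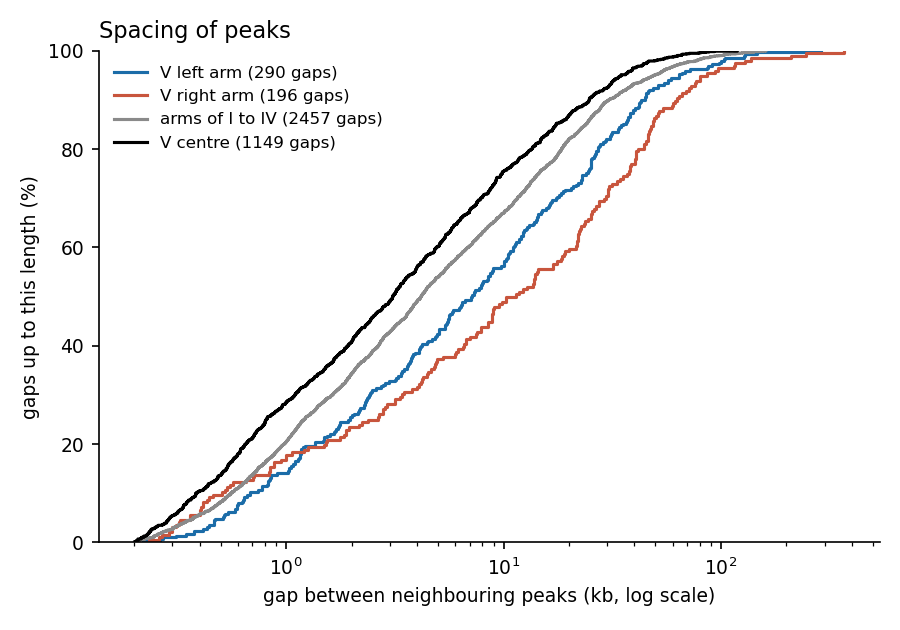
Share of gaps (percent, vertical axis) up to a given length (kb, log scale) between neighbouring peaks on the left arm of V, the right arm of V, the arms of I to IV together and the centre of V. The curves of both V arms lie to the right of the others over most of the range, with medians of 7119 and 10841 bp against 4173 and 3097 bp.

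Set against the other autosome arms, defined in the same way, the arms of V were sparse. They held 46.7 peaks per Mb and the arms of I to IV 80.3, a ratio of 0.582 (0.479 to 0.707; quasi-Poisson fit, n = 42 and 122 blocks, adjusted p = 5.09e-07). Peaks covered 2.42% of the V arms and 4.23% of the others. The right arm of V had 0.459 times the density of the other right arms (0.340 to 0.619; n = 21 and 61 blocks, adjusted p = 1.84e-06). The left arm had 0.712 times that of the other left arms (0.549 to 0.922; n = 21 and 61 blocks, adjusted p = 0.0169). That left-arm difference no longer passed the threshold without chromosome I (0.760, adjusted p = 0.0563) or without chromosome IV (0.753, adjusted p = 0.0567), by quasi-Poisson fits over blocks, n = 21 on V.

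In the order of the 10 autosome arms the right arm of V was the lowest, at 37.7 peaks per Mb (29.0 to 49.1). It was followed by the left arm of II with 50.3 (38.5 to 65.7), the right arm of IV with 55.6 (43.8 to 70.4) and the left arm of V with 55.7 (44.9 to 69.2). The intervals of these 4 arms overlap, and apart from the left against the right arm of V no pair of them was tested. The remaining 6 arms ran from 78.8 to 103 peaks per Mb. The left arm of V was thus about as dense as the sparser arm of II and of IV, each of which has a denser partner on the other side. By side, I had 93.7 peaks per Mb on the left and 79.0 on the right, and IV had 89.1 and 55.6, so these too were denser on the left. On II (50.3 and 97.5) and III (78.8 and 103) the right arm was denser. The left to right ratio was larger on IV than on V, which had 55.7 and 37.7. Pooled by side, these opposite differences offset each other, and V was not tested against any single chromosome. The p-values below rest on the spread between blocks and leave out how the left to right ratio varies between chromosomes. The left to right ratio of V was 1.55 times that of the other autosomes combined (1.05 to 2.30; n = 42 and 122 blocks, adjusted p = 0.0446). It was 1.30 without chromosome II (adjusted p = 0.183), 1.44 without III (adjusted p = 0.0848) and 1.34 without the sparse megabase of the right arm (adjusted p = 0.195; quasi-Poisson fits, n = 42 or 38 blocks on V). This call did not hold in those settings, nor in 3 others. The sparse megabase was picked after the data were seen, and leaving it out lowers the value by construction.

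**Figure D3:**
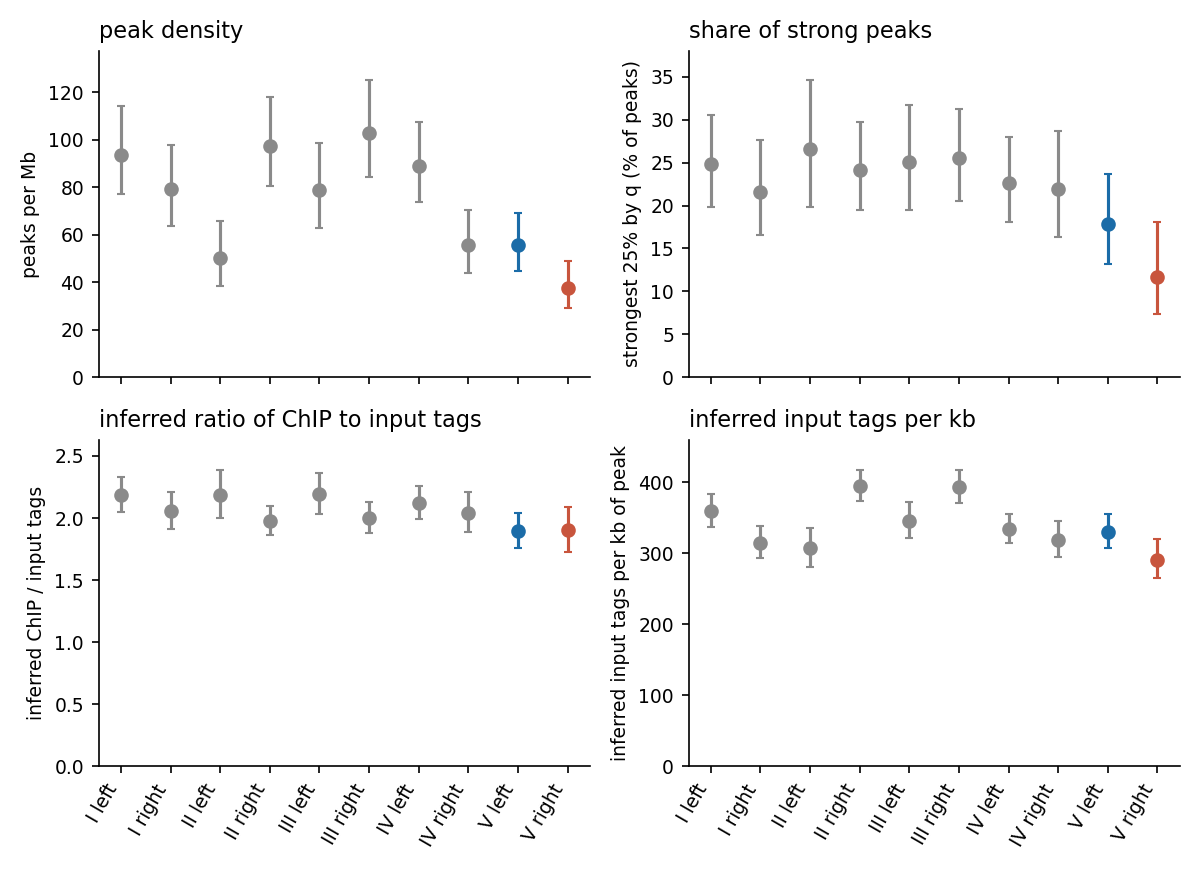
Values of the 10 autosome arms with 95% intervals from quasi-likelihood fits over blocks of about 250 kb: peaks per Mb, percent of peaks among the strongest 25% of the list by q, inferred ratio of ChIP to input tags, and inferred input tags per kb of peak. The arms of V (coloured) have the 2 lowest shares of strong peaks, 17.9% and 11.7%, while the left arm of II and the right arm of IV, which are about as sparse as the left arm of V, have 26.6% and 21.9%.

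The peaks on the arms of V were also less often strong. A strong peak was one within the 25% of the whole list with lowest q, which means a q of at most 6.08e-26. The q-value is the authors' and was used as a description of a peak, for its rank and, further on, to infer tag counts. Of the 488 peaks, 75 (15.4%) were strong, against 591 of 2465 (24.0%) on the arms of I to IV. The odds ratio was 0.576 (0.425 to 0.781; quasi-binomial fit, n = 41 and 122 blocks, adjusted p = 0.000812). Inferred input, described below, was also lower in the V arm peaks, at 315 against 351 tags per kb, and its part in this difference was not tested. With wider arms, the outer 33.3% of the span on each side, the odds ratio was 0.784 and missed the threshold (quasi-binomial fit, adjusted p = 0.0560), as it did among the 5079 peaks of lowest q (0.832, adjusted p = 0.410).

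Against the centre of the same chromosome, where 27.8% of 1150 peaks were strong, the odds ratio was 0.471 (0.343 to 0.648; quasi-binomial fit, n = 41 and 42 blocks, adjusted p = 2.33e-05). Among the 5079 peaks of lowest q it was 0.823 and missed the threshold (quasi-binomial fit, adjusted p = 0.410). The median q of the arm peaks was 8.99e-07, against 1.75e-09 on the arms of I to IV and 4.09e-12 in the centre of V. At the weak end, 90 of the 488 (18.4%) had a q over 0.001, against 13.2% on the arms of I to IV and 9.91% in the centre of V. This share was not particular to V. It was 17.5% on its left arm and 19.8% on its right, but also 18.75% on the left arm of II and 16.9% on the right arm of IV. The rest of the arms of I to IV ran from 9.40% to 14.2%. At the strong end, 1 of the 488 had a q under 1e-100, against 75 of 2465 on the other arms and 44 of 1150 in the centre.

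Neither arm was tested by itself against the other arms. The strong share was 17.9% on the left (52 of 291; 13.2 to 23.7) and 11.7% on the right (23 of 197; 7.32 to 18.1), the 2 lowest values of the 10 arms. The other 8 arms ran from 21.6% on the right arm of I to 26.6% on the left arm of II. Left and right were not told apart (odds ratio 1.65, 0.881 to 3.08; quasi-binomial fit, n = 21 and 20 blocks, adjusted p = 0.135), and the interval of their ratio is wide. The lowest q of an arm was 2.59e-110 on the left arm of V and 3.76e-100 on the right, against values between 1.08e-151 and 1.48e-269 on the other 8 arms.

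A comparison with the left arm of II and the right arm of IV was added once the densities were known, because these arms were about as sparse. Since they were chosen by density, no test of density against them is given: it was 46.7 peaks per Mb on the arms of V and 53.1 on these. Inferred input tags per kb of peak were 315 and 314 (ratio 1.00, 0.930 to 1.08), but with the wider arms the ratio was 1.09 and passed the threshold. The strong share was 15.4% against 24.0% (odds ratio 0.576, 0.393 to 0.844; quasi-binomial fit, n = 41 and 32 blocks, p = 0.0140 after adjustment over the 4 added tests). The part of density and input in this difference was not tested. In quasi-binomial fits it missed the threshold with the wider arms (0.787, adjusted p = 0.0944) and among the 5079 peaks of lowest q (0.721, adjusted p = 0.260).

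Strong peaks were unevenly placed on the right arm. Between 18590867 and 20068972, a stretch of 1.48 Mb, 65 peaks followed each other with none among the strongest 25% of the list. They are 33.0% of the peaks of that arm, and their lowest q was 1.59e-22. The longest run of this kind had 25 peaks on the left arm of V (2150629 to 2673281) and 15 to 27 peaks on the 8 arms of I to IV. The stretch was chosen for having no strong peak and carries no test. It was not empty, since the step from 1 to 2 Mb from the end held 49 peaks, a number close to the 52 of the outermost step, in which 10 peaks were strong. The step from 3 to 4 Mb held 12 peaks and likewise 0 strong ones. Were these peaks independent, which clustered peaks are not, that would allow up to 25%.

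On the left arm the 8 peaks of lowest q lay between 1853 and 4475 kb from the outermost peak. The lowest q of both arms, 2.59e-110, belonged to a 766 bp peak from 1892525 to 1893290, which ranked 225 in the whole list. Another of the 8 lay nearby, from 1860683 to 1861180 (q = 1.87e-64). The next was a 679 bp peak from 3738242 to 3738920 (q = 2.52e-93), which opens one of the chains of 4. A further pair lay closer to the end, at 3468353 to 3468877 (q = 1.72e-68) and 3505730 to 3506401 (q = 1.29e-73). A 1430 bp peak from 3979472 to 3980901 (q = 7.11e-73) lies shortly before the other chain of that arm. The remaining pair lay from 4482887 to 4483564 (q = 4.63e-76) and from 2675617 to 2676210 (q = 1.04e-74).

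On the right arm, of the 8 peaks of lowest q, 3 lay within 781 kb of the outermost peak. These ran from 20657717 to 20658358 (q = 7.54e-97), from 20409923 to 20412562 (q = 2.06e-68) and from 20117958 to 20118500 (q = 6.51e-64). The lowest q of the arm, 3.76e-100, belonged to a peak of 5755 bp from 16778419 to 16784173, which ranked 309 in the list. A further 3 lay between 2312 and 2993 kb from the outermost peak, from 17905636 to 17906864 (q = 6.16e-97), from 18586899 to 18587463 (q = 5.69e-61) and from 18345996 to 18346462 (q = 3.65e-55). The last of the 8 lay near the inner limit, from 16000379 to 16001129 (q = 1.06e-58).

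Width did not set the arms of V apart. The median was 421.5 bp, with quartiles of 293.75 and 615 bp, against 429 bp on the arms of I to IV and 441.5 bp in the centre of V. A peak was counted as wide above 421 bp, the median of the whole list. Of the V arm peaks 244 of 488 were wide, against 51.2% on the other arms (odds ratio 0.955, 0.756 to 1.21; quasi-binomial fit, n = 41 and 122 blocks, adjusted p = 0.742) and 53.4% in the centre of V (0.873, 0.679 to 1.12; n = 41 and 42 blocks, adjusted p = 0.325). The median was 440 bp on the left arm and 371 bp on the right, and their shares of wide peaks, 53.6% and 44.7%, were not told apart (odds ratio 1.43, 0.924 to 2.22; n = 21 and 20 blocks, adjusted p = 0.135). Both values of the right arm were the lowest of any autosome arm. The arms of I to IV had medians of 407 to 461 bp and shares of 47.3% to 56.3%. The right arm was not tested by itself against them.

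The widest peaks included both weak and strong ones. The 4 widest of the left arm measured 2370 bp (3578926 to 3581295), 2323 bp (2066598 to 2068920), 2057 bp (4506510 to 4508566) and 2047 bp (4522821 to 4524867), with q-values of 2.09e-10, 1.88e-05, 3.39e-51 and 7.04e-27. On the right arm, the 5755 bp peak was followed by peaks of 2996 bp (17856665 to 17859660; q = 3.50e-12), 2640 bp (20409923 to 20412562) and 2548 bp (20706814 to 20709361; q = 8.45e-25). Wider peaks tended to have lower q: the rank correlation (Spearman) of −log10 q with width was 0.416 on the left arm (n = 291) and 0.561 on the right (n = 197), as a description of peaks that share libraries and depth. At the narrow end, 8 of the 488 (1.64%) were at most 50 bp wide, 2 on the left and 6 on the right. The share was 2.56% on the arms of I to IV and 1.82% over the whole list.

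The q-values carry more than a rank. PeakSeq compares ChIP with input tags by a binomial test, and a formula for q was tried in which that tail probability is multiplied by a number of candidate regions and divided by the rank. A search over 10159 to 30000 candidates, with the rank shifted by 0 to 20 places, found 16906 candidates and a shift of 12. With these the formula matched exactly 1 pair of whole tag counts for 10147 of 10159 peaks within a relative tolerance of 1e-11, for totals of up to 20000 tags, with 0 matches when the number of candidates was 1 lower or 1 higher. All 488 peaks on the arms of V could be given a pair. The pairs are inferred and not part of the deposited list, they cover both replicates together, and input is as scaled by the caller. Since peaks of 1 bp also received tags, tags per kb are inflated in narrow peaks, and only peaks of at least 200 bp were used below (434 of the 488).

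By these inferred counts the V arm peaks were less enriched. Their ratio of ChIP to input tags was 1.90 over all tags and 2.08 on the arms of I to IV, a quotient of 0.911 (0.854 to 0.971; quasi-binomial fit, n = 41 and 122 blocks, adjusted p = 0.0101). Against the centre of V, with a ratio of 2.16, the quotient was 0.879 (0.827 to 0.935; n = 41 and 42 blocks, adjusted p = 0.000295). The median peak had 265 ChIP and 130 input tags on the arms of V, against 324 and 147.5 on the arms of I to IV. By arm the medians were 280 and 137 on the left of V and 207 and 105 on the right. The right arm of IV, the lowest of I to IV, had 282 and 116. The left and right arms had ratios of 1.89 and 1.90 (quotient 0.996, 0.882 to 1.12; n = 21 and 20 blocks, adjusted p = 0.949). The arms of I to IV ran from 1.98 (1.87 to 2.09) on the right arm of II to 2.19 on the left arm of III. The intervals of the V arms, 1.76 to 2.04 and 1.73 to 2.09, overlap that of the right arm of II. Neither V arm was tested by itself against the other arms. The median peak ratio was 1.81 and 1.87 on the left and right arms of V, and 1.87 on the right arm of II. The quotient against the other arms missed the threshold with the wider arms (0.958, quasi-binomial fit, adjusted p = 0.142) and among the 5079 peaks of lowest q (0.913, adjusted p = 0.144), where the quotient against the centre of V did so too (0.943, adjusted p = 0.311).

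High ratios were less common on the arms of V than on the arms of I to IV together. A ratio over 3 was found in 52 of 434 peaks (11.98%), against 444 of 2206 (20.1%) on the arms of I to IV and 17.6% in the centre of V. It was 12.4% on the left arm of V and 11.3% on the right. Arm by arm, I to IV ran from 13.2% on the right arm of II to 25.5% on the left arm of III. A ratio over 5 was found in 5 of 434 (1.15%), all 5 on the left arm, against 87 of 2206 (3.94%). The share of the left arm, 1.88%, was close to the 2.03% of the left arm of IV and the 2.10% of the right arm of II. The right arm of V had 0 of 168. Were its peaks independent, which clustered peaks are not, that would allow a share of up to 1.79%. Named after their values were seen, the highest ratios were 5.79 on the left arm, in a 374 bp peak from 3985058 to 3985431 with 324 ChIP and 56 input tags, and 4.81 on the right, in the 543 bp peak from 20117958 to 20118500 with 515 and 107. The 374 bp peak closes the chain of 4 that starts at 3982100. The 5755 bp peak of the right arm had the lowest q there with a ratio of only 1.90, from 3060 ChIP and 1609 input tags.

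**Figure D4:**
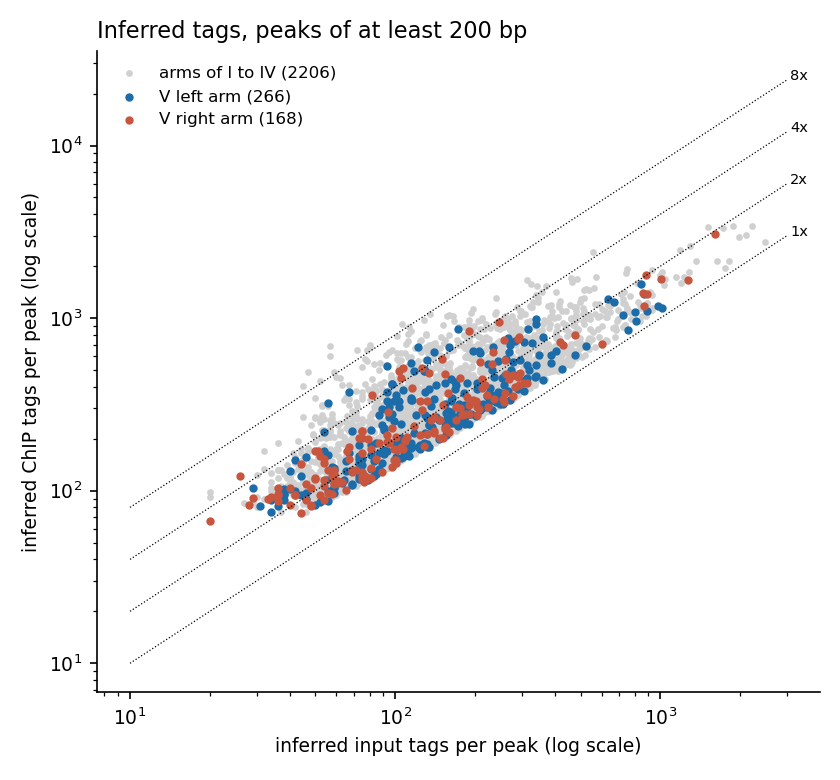
Inferred ChIP tags against inferred input tags per peak, both on log scales, for the 266 peaks of the left arm of V, the 168 of the right arm and the 2206 of the arms of I to IV that are at least 200 bp wide. Dotted lines mark ChIP to input ratios of 1, 2, 4 and 8, and the coloured points thin out above the line at 4, with a maximum of 5.79 against 12.02 on the arms of I to IV.

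The strong peaks of the V arms had a median ratio of 2.99 (n = 75), against 3.38 for the strong peaks of the arms of I to IV (n = 591). The other peaks had medians of 1.73 and 1.74. The ratio enters q, so these values describe the peaks and carry no test.

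Input differed as well. Inferred input tags per kb of peak were 315 on the arms of V and 351 on the arms of I to IV, a quotient of 0.897 (0.835 to 0.964; quasi-Poisson fit, n = 41 and 122 blocks, adjusted p = 0.00771). The left arm had 330 and the right 291, a quotient of 1.13 (1.01 to 1.28; n = 21 and 20 blocks, adjusted p = 0.0508), which missed the threshold of 0.05. The part of input in the differences in density and strong share was not tested. Among the 8 arms of I to IV, input ran from 307 tags per kb on the left arm of II to 395 on the right arm of II. Individual peaks with much input occurred too. The outermost peak of the left arm, from 7780 to 9458, had 1144 ChIP and 1017 input tags in 1679 bp, 606 input tags per kb, and a ratio of 1.12 (q = 5.74e-03). At the other end of the chromosome the outermost peak, from 20898573 to 20899459, had 411 and 219 tags in 887 bp and a ratio of 1.88 (q = 3.49e-14).

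The inner limits of the arms are positions and not features of the list. The last peaks inside the left limit lay from 5224784 to 5225297 (q = 2.40e-04) and from 5225561 to 5226019 (q = 1.29e-26), and the first outside it from 5272415 to 5273536 (q = 2.94e-08) and from 5312698 to 5312927 (q = 5.75e-09). At the right limit, the peaks just inside ran from 15702431 to 15702758 (q = 1.56e-12) and from 15703056 to 15703295 (q = 3.54e-07). Just outside lay those from 15663910 to 15664725 (q = 1.55e-40) and from 15666736 to 15667534 (q = 3.58e-22). The right limit falls in a gap between peaks, and the chain of 4 at 15702431 is the first group beyond it.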

How the data were processed

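The program named for the calls is PeakSeq and the build is WormBase WS180, per the file headers and source field. The authors deposited 1 combined list with a q-value per peak. The aligner, tool versions, read filters and depth are not given in the sources used here, nor is whether reads were pooled before calling. The gene table in hand is of assembly WBcel235, so genes, promoters and sequence at the peaks were not used here.

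Each arm and centre was divided into equal blocks of about 250 kb. Peaks per block (quasi-Poisson), strong or wide peaks among all peaks, and inferred tags were fitted in R 4.3.3 (glm) with dispersion estimated from the blocks, two-sided F tests and Benjamini-Hochberg adjustment over 16 tests. Comparisons with the left arm of II and the right arm of IV were added after the densities were seen. The fits were also run on simulated blocks drawn independently of each other, which cannot show how they fare where neighbouring blocks are alike. Peaks named are, per arm, the 8 of lowest q, the 4 widest, the 3 longest gaps, chains of 4 or more, outermost peaks and those at the limits. The members and comparisons were chosen with earlier results of these data known, and the form of q that gave the inferred tags came from them too. Blocks are not replicates, V is 1 chromosome, and neighbouring blocks may be alike, so p-values may be too small. Intervals are at the 95% level. Tags were inferred with scipy 1.17.1 and numpy 2.4.6, counts made with pandas 2.3.3 under Python 3.11.15, and plots drawn with matplotlib 3.10.9.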

Additional observations from a re-analysis of the deposited data

Results flagged for a closer look

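The left to right ratio of peak density on V was 1.55 times that of the other autosomes (1.05 to 2.30; quasi-Poisson interaction of side and chromosome, n = 42 and 122 blocks, adjusted p = 0.0446). It is listed because the same contrast differed between V and the pooled arms of I to IV by a test of the difference itself. A denser left arm was not particular to V, since IV had 89.1 peaks per Mb on the left and 55.6 on the right. That is a larger ratio than on V, with 55.7 and 37.7. The test rests on the spread between blocks and leaves out how the left to right ratio varies between chromosomes. The call was lost in 6 of 12 alternatives, among them the one without chromosome II. Another was the one without the sparse megabase of the right arm, which lowers the value by construction. The cause of the difference was not tested.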

How the results depend on the processing

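Values were recomputed under alternatives to the blocks, the list, the limits of the arms and the chromosomes compared, with p-values adjusted anew in each. Of 166 recomputed values, leaving aside the comparisons added with the left arm of II and the right arm of IV, 138 kept their direction and their side of the threshold of 0.05, 20 lost a call and 8 changed direction. The density of the V arms against the other arms kept its call in 12 of 12 (ratios 0.409 to 0.627), as did that of the right arm (0.296 to 0.532). The 8 changes of direction were in comparisons that passed the threshold neither before nor after. Among the 5079 peaks of lowest q the odds ratio of wide peaks was 1.51 against the other arms, 1.20 against the centre of V and 0.994 left against right, and the ratio of inferred ChIP to input tags left against right was 1.16. With arms of 33.3% of the span that ratio was 1.01 and the odds ratio of wide peaks against the other arms 1.09. Without the fullest block of each group the ratio of tags left against right was 1.01, and with wide meaning over 1000 bp the odds ratio left against right was 0.880.

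Calls lost among those 5079 peaks were the strong share against the centre of V (0.823) and against the other arms (0.832), where weak peaks are left out by construction, the ratio of tags against both (0.943 and 0.913), input against the other arms (0.942), the left to right density ratio (1.74) and its interaction with V (1.78). With the wider arms, the strong share (0.784), input (0.959) and ratio of tags (0.958) against the other arms lost theirs. The left to right density ratio and its interaction lost theirs with blocks of 500 kb (1.48 and 1.55, with wider intervals from fewer blocks), with the outer 20% of the span (1.49 and 1.57) and, added after seeing the data, without the sparse megabase of the right arm (1.27 and 1.34). The interaction was also lost without chromosome II (1.30) or III (1.44), and the lower density of the left arm without I (0.760) or IV (0.753). Of 33 values for the added comparisons, 27 were unchanged in this sense and 4 lost a call: the strong share (0.721 and 0.787) and the ratio of tags (0.894 and 0.944), among the 5079 peaks and with the wider arms. Input gained one with the wider arms (1.09) and changed direction without the fullest blocks (0.981, against 1.00). Where no reason is named, the cause of a lost call was not tested. No paired analysis was possible because both replicates share 1 q-value for each peak, so leaving out either of them was not possible either.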
